A study of Mus musculus with 27 samples.

Results

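miR-151 and miR-423 are mouse microRNAs (miRNAs) of which both mature arms, 5p and 3p, were listed above 0 in all 27 small RNA libraries of this series. The 4 entries described here, mmu-miR-151-5p, mmu-miR-151-3p, mmu-miR-423-5p and mmu-miR-423-3p, were taken by name from the 1013 small RNA entries of the deposited table, 483 of which were miRNA entries. Neither miRNA had an entry for its hairpin. The pair was chosen by the ratio of 3p to 5p RPM in these same libraries, which differed between fractions of the cell. That ratio, and the level of each single arm, are therefore given as a description and carry no test. The libraries came from 3 kinds of mouse cells, each separated into chromatin, soluble nucleoplasm and cytoplasm, with 3 libraries for each of the 9 combinations. The mESC libraries are from E14, an embryonic stem cell line kept on gelatin with LIF, a cytokine that keeps stem cells undifferentiated. The mNPC libraries are from a line of neural progenitors made in the submitting laboratory and kept in B27 medium with 10 ng/ml EGF and FGF; whether it is a clone was not stated. mCtx are primary cortical neurons kept in culture for 5 days, a preparation that can hold other brain cells. All groups were untreated, and no label names a genotype change in any of them.

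A miRNA hairpin is cut by Drosha in the nucleus and by Dicer in the cytoplasm, which leaves a short duplex made of the 5p and the 3p arm. Argonaute proteins keep one strand of the duplex as the guide and the other is usually degraded. The ratio of the arms is therefore often read as strand retention, but these libraries do not measure Argonaute binding. Bases 2 to 8 of the guide, the seed, pair with target messages, and the arms of one hairpin therefore address different targets. Mature miRNAs act mainly in the cytoplasm, but Argonaute and mature miRNAs are also found in nuclei. miR-423-5p is widely measured as a circulating marker in heart disease, and miR-151 is known for effects on cell migration together with its host gene Ptk2, which encodes focal adhesion kinase.

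The sequences below are shown because the report turns on the balance between the strands of one hairpin. They are the RefSeq sequences for GRCm38.p6, written 5′ to 3′ with the seed in capitals, for miR-423 and for miR-181c, the only other miRNA with both arms above 0 in all 27 libraries. RefSeq entries matched 8 of the 10 arms looked up.
mmu-miR-423-5p: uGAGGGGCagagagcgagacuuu
mmu-miR-423-3p: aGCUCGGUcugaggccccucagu
mmu-miR-181c-5p: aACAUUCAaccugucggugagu
mmu-miR-181c-3p: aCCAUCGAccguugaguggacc
The hairpin of miR-423 is 109 nt long, and its arms, in capitals here, are separated by 13 bases.
Mir423: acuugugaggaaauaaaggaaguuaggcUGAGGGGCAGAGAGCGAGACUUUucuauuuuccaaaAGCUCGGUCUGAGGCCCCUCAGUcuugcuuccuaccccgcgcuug
The arms of miR-423 differ in seed (GAGGGGC on 5p, GCUCGGU on 3p), in first base (U on 5p, A on 3p) and in GC content, which is 56.5% on 5p and 65.2% on 3p.

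The miR-423 arms lie on the minus strand of GRCm38 chromosome 11, at 77078122 to 77078144 (5p) and 77078086 to 77078108 (3p). Both are in intron 1 of Nsrp1-201, a transcript of the gene for a nuclear speckle splicing factor, and no exon of Nsrp1 overlaps them. The miR-151 arms lie on the minus strand of chromosome 15, at 73254855 to 73254875 (5p) and 73254820 to 73254840 (3p), within intron 22 of Ptk2-201 and outside every annotated exon of Ptk2. An antisense gene on the plus strand, 1700085D07Rik, spans the miR-151 locus. The arms of each hairpin have the same length (21 nt for miR-151, 23 nt for miR-423). Whether both arms of a hairpin are captured equally well in a library was not tested, so the more abundant arm is the one with more RPM.

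Levels are in RPM, the authors' read counts scaled to a fixed library total, which are shares of a library and give no amount per cell. Fewer copies per cell and a larger share of other RNA in the library cannot be told apart on this scale. The composition of the libraries differed by fraction: miRNAs made up 24.7% to 75.7% of the listed RPM in chromatin, 78.7% to 96.2% in nucleoplasm and 78.3% to 95.8% in cytoplasm, while snoRNAs made up 20.6% to 54.3% in chromatin. The ratio of the arms is formed within a library and does not depend on that scaling. The depth of the libraries was not given, and the lowest value above 0 lay between 5.16 and 59.07 RPM. All 6 entries of the mESC list (miR-290a, miR-291a, miR-292a, miR-293, miR-294 and miR-295) were listed at 0 in every mNPC and mCtx library. miR-124, the defining miRNA of neurons, was listed at 0 in every mNPC library, above 0 in mCtx, and also above 0 in mESC nucleoplasm. The whole neuron list (miR-124, miR-132, miR-138) was not absent from mNPC. It summed to 183 to 629 RPM there, to 0 to 345 RPM in mESC and to 4702 to 8618 RPM in mCtx. Lists for other cells also had values above 0 in mCtx, which does not by itself show such cells there. The endothelium and mesenchyme list (miR-126a, miR-143, miR-145a, miR-199a) summed to 2192 to 4099 RPM in mCtx, against 949 to 7594 RPM in the mESC line and 112 to 345 RPM in mNPC. miR-145a was at 0 in all mNPC and mCtx libraries, and miR-199a in all mNPC and all mCtx chromatin libraries. The glia list (miR-219a, miR-338) summed to 50.2 to 101.4 RPM in mCtx, to 0 in mESC and to 0 to 288 RPM in mNPC. The 2 of 4 microglia and blood miRNAs with an entry summed to 0 to 44.5 RPM in mCtx, with miR-150 at 0, against 407 to 3914 RPM in mESC and 0 in mNPC. Their part in the results was not tested. mCtx cytoplasm replicate 1 stood apart within its group: its correlation with the other mCtx cytoplasm libraries was 0.897 and 0.906, against 0.964 between those. Within mCtx chromatin and nucleoplasm the correlations were 0.946 to 0.960 and 0.957 to 0.976. Values as low as those of replicate 1 were found in other cell types, at 0.892 to 0.901 within mESC chromatin and 0.871 to 0.929 within mNPC chromatin. Differences of miR-151 and miR-423 that use this library and are named below are given with and without it. Without it the group holds 2 libraries, and groups then separate more easily.

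The 3p arm of miR-423 was the more abundant arm in all chromatin libraries, and the 5p arm in all cytoplasm libraries. The log2 ratio of 3p to 5p was above 0 in 9 of 9 chromatin, 5 of 9 nucleoplasm and 0 of 9 cytoplasm libraries. In mESC, replicates 1, 2 and 3 had log2 ratios of 1.15, 1.61 and 1.58 for chromatin, -0.21, -0.22 and -0.48 for nucleoplasm and -0.84, -0.90 and -0.95 for cytoplasm. The 3 fractions of mESC thus formed separate, ordered bands, with cytoplasm the tightest. In mNPC the ratios were 2.83, 2.22 and 2.67 for chromatin, 0.30, 0.44 and 0.23 for nucleoplasm and -0.95, -0.60 and -0.51 for cytoplasm. Again no value of one fraction reached into another. In mCtx they were 2.72, 2.39 and 2.02 for chromatin, 0.19, 0.73 and -0.27 for nucleoplasm and -1.91, -0.43 and -0.36 for cytoplasm. The bands of mCtx were wider but did not overlap either, and the lowest cytoplasm value was that of replicate 1, the library that stood apart.

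**Figure D1:**
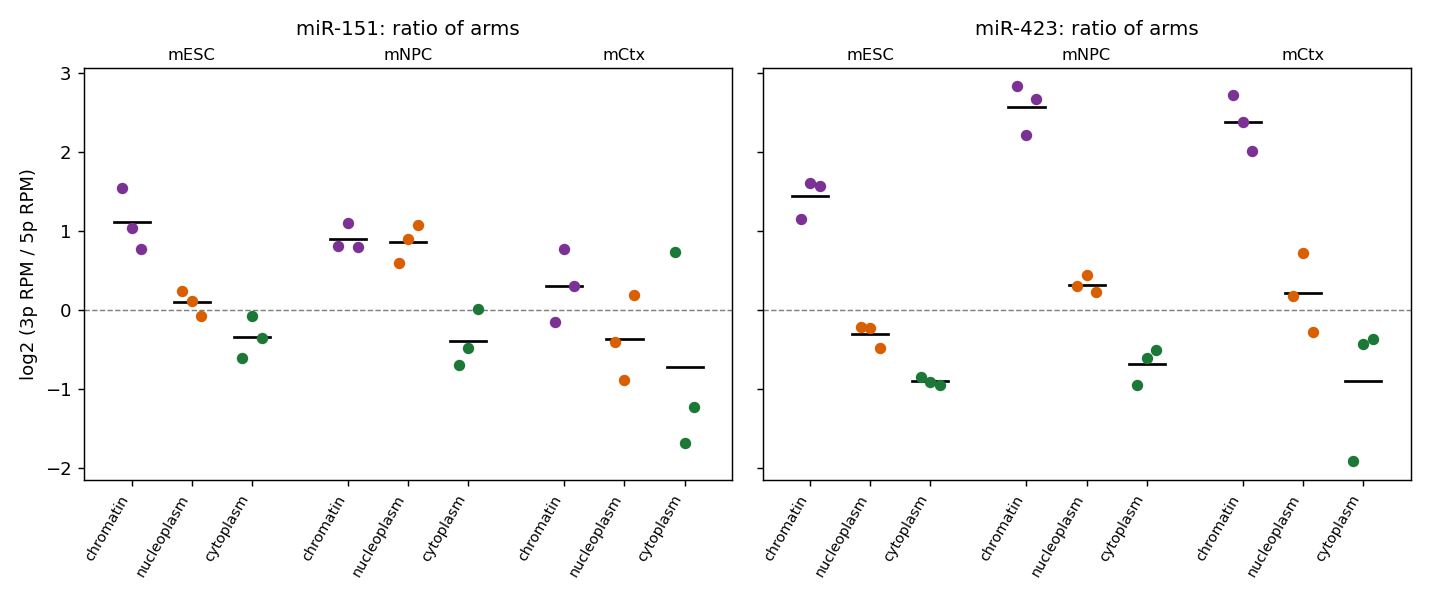
Log2 ratio of 3p to 5p RPM of miR-151 (left) and miR-423 (right) in each library (points, 3 per group, coloured by fraction), with the group mean as a black bar. The dashed line marks equal arms; all chromatin points of miR-423 lie above it and all its cytoplasm points below, whereas miR-151 crosses the line by less, and its mCtx cytoplasm points fall on both sides.

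As a share of both arms, miR-423-3p made up 73.0% ± 3.53 (SD, n = 3) of the mESC chromatin signal, 85.5% ± 2.80 in mNPC chromatin and 83.7% ± 3.32 in mCtx chromatin. In cytoplasm it made up 34.9% ± 0.81, 38.4% ± 3.75 and 35.8% ± 12.8. In mESC the log2 ratio of miR-423 was 2.34 (SE 0.15) higher in chromatin than in cytoplasm; it was 3.26 (SE 0.23) higher in mNPC and 3.27 (SE 0.55) higher in mCtx, and the last was 2.77 without mCtx cytoplasm replicate 1. These are shifts of 5.07-, 9.58- and 9.68-fold in the ratio. Nucleoplasm lay between the other fractions: it exceeded cytoplasm by 0.59 (SE 0.09), 1.01 (SE 0.15) and 1.11 (SE 0.58; 0.61 without that library), and chromatin exceeded it by 1.75 (SE 0.17), 2.25 (SE 0.19) and 2.16 (SE 0.35), in the order mESC, mNPC, mCtx. In all 9 of these comparisons the libraries of the groups compared did not overlap.

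miR-151 moved in the same direction by less. Its log2 ratio was above 0 in 8 of 9 chromatin, 6 of 9 nucleoplasm and 2 of 9 cytoplasm libraries. In mESC it was 1.54, 1.04 and 0.78 for chromatin, 0.25, 0.12 and -0.07 for nucleoplasm and -0.60, -0.07 and -0.35 for cytoplasm. Chromatin stood clear of both other fractions in mESC, and nucleoplasm and cytoplasm met near 0. In mNPC it was 0.82, 1.10 and 0.80 for chromatin, 0.60, 0.90 and 1.07 for nucleoplasm and -0.69, -0.47 and 0.02 for cytoplasm. Here chromatin and nucleoplasm covered the same range, and both lay above cytoplasm. In mCtx it was -0.15, 0.78 and 0.31 for chromatin, -0.41, -0.88 and 0.19 for nucleoplasm and 0.74, -1.68 and -1.22 for cytoplasm. All 3 fractions overlapped in mCtx, and replicate 1 was the one cytoplasm library of mCtx in which 3p exceeded 5p.

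The log2 ratio of miR-151 was higher in chromatin than in cytoplasm by 1.46 (SE 0.27) in mESC and 1.29 (SE 0.23) in mNPC, without overlap. In mCtx the difference was 1.03 (SE 0.79) with overlap, and 1.76 without overlap when mCtx cytoplasm replicate 1 was left out. Nucleoplasm exceeded cytoplasm without overlap in mNPC, by 1.24 (SE 0.25). The same difference was 0.44 (SE 0.18) in mESC and 0.35 (SE 0.80) in mCtx, both with overlap, and the mCtx value was 1.08 without overlap when the library that stood apart was left out. Chromatin exceeded nucleoplasm by 1.02 (SE 0.24) in mESC, without overlap, and by 0.05 (SE 0.17) in mNPC and 0.68 (SE 0.41) in mCtx, with overlap.

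The background for these counts is the set of miRNAs with both arms above 0 in all 6 libraries of a comparison. Few miRNAs met this, because low arms were listed at 0. For chromatin against cytoplasm, 55.6% (5 of 9) had a higher ratio in chromatin without overlap in mESC, 42.9% (3 of 7) in mNPC and 15.4% (2 of 13) in mCtx. miR-423 was among them in each cell type and miR-151 in mESC and mNPC. For nucleoplasm against cytoplasm the shares were 30.4% (7 of 23) in mESC, 28.6% (4 of 14) in mNPC and 6.67% (2 of 30) in mCtx, and for chromatin against nucleoplasm 50% (4 of 8), 14.3% (1 of 7) and 6.67% (1 of 15). Without mCtx cytoplasm replicate 1, the mCtx counts were 3 of 15 for chromatin and 8 of 40 for nucleoplasm, and miR-151 and miR-423 were in both. The members are counted in these sets and were chosen by this ratio, so nothing is read from the comparison of their count with the background.

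**Figure D2:**
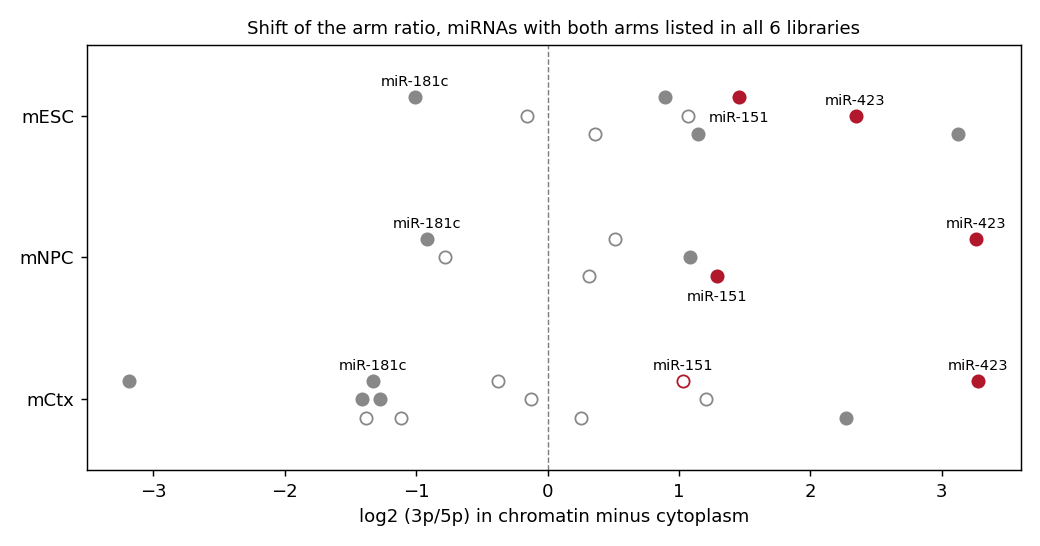
Difference in log2 ratio of 3p to 5p between chromatin and cytoplasm (horizontal axis) for each miRNA with both arms above 0 in all 6 libraries, by cell type; filled points mark groups that did not overlap, open points groups that did. miR-423 (red) lies at 2.34, 3.26 and 3.27, miR-151 (red) at 1.46, 1.29 and 1.03, and miR-181c on the other side of 0 in all 3 cell types.

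The shift was not shared by all miRNAs that could be measured. In mESC the miR-290 to miR-295 cluster member miR-294 had a larger difference between chromatin and cytoplasm, 3.12, than either member. miR-181c, whose 5p arm exceeded 3p in all 27 libraries, had a lower ratio in chromatin than in cytoplasm. The differences were -1.01 (mESC), -0.92 (mNPC) and -1.33 (mCtx, or -0.98 without mCtx cytoplasm replicate 1), each without overlap. In mCtx miR-106b, of a cluster active in dividing cells, was at -3.18. The 5p arm was the more abundant in cytoplasm, by group mean, for 7 of the 9 miRNAs in mESC, and 6 of those 7 had a higher ratio in chromatin. In mNPC this held for 3 of 5 and in mCtx for 5 of 9. miR-151 and miR-423, chosen by this ratio, are in each of these counts. Where 3p was the more abundant in cytoplasm, 1 of 2 had a higher ratio in chromatin in mESC, 2 of 2 in mNPC and 0 of 4 in mCtx. No link between the more abundant arm and the shift is read from these counts.

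In RPM, the 5p arm of miR-423 differed more between chromatin and cytoplasm than the 3p arm in every cell type. In mESC, miR-423-5p was at 569, 253 and 312 RPM in chromatin against 2672, 2942 and 2783 RPM in cytoplasm, while miR-423-3p was at 1266, 770 and 932 RPM against 1489, 1573 and 1445 RPM. Both arms were lower in chromatin in every mESC library, the 5p arm by much more. In mNPC, miR-423-5p was at 166, 263 and 100.4 RPM in chromatin against 1763, 1731 and 1759 RPM in cytoplasm, and miR-423-3p at 1181, 1228 and 638 RPM against 914, 1141 and 1237 RPM. The 3p arm overlapped between these fractions of mNPC and the 5p arm did not. In mCtx, miR-423-5p was at 59.0, 48.1 and 65.3 RPM in chromatin against 231, 411 and 298 RPM in cytoplasm, and miR-423-3p at 390, 251 and 265 RPM against 61.5, 305 and 233 RPM. The low 3p value of 61.5 RPM belongs to mCtx cytoplasm replicate 1. On the log2 scale, miR-423-5p was lower in chromatin than in cytoplasm by -2.98, -3.42 and -2.42 in mESC, mNPC and mCtx, and miR-423-3p differed by -0.63, -0.16 and 0.86. The mCtx values were -2.62 for 5p and 0.15 for 3p without mCtx cytoplasm replicate 1. Which arm carries the shift depends on the scale, since miRNAs are a smaller share of chromatin libraries. As a percentage of all miRNA RPM, miR-423-5p was lower in chromatin than in cytoplasm (0.176% against 0.401% in mESC, 0.032% against 0.193% in mNPC, 0.0093% against 0.036% in mCtx). miR-423-3p was higher by group mean (0.463% against 0.215%, 0.184% against 0.121%, 0.049% against 0.023%). In mNPC its libraries overlapped, with replicate 3 at 0.137% in both chromatin and cytoplasm. In mCtx cytoplasm, replicate 1 was at 0.0071% of miR-423-3p, beside 0.036% and 0.027% in the other libraries of the group.

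Between chromatin and cytoplasm, the 5p arm of miR-151 also had the larger difference in RPM. miR-151-5p in mESC was at 388, 407 and 592 RPM in chromatin against 2671, 2415 and 2753 RPM in cytoplasm, and miR-151-3p at 1129, 836 and 1014 RPM against 1760, 2305 and 2158 RPM. Both arms were lower in mESC chromatin without overlap. In mNPC, where both arms were highest, miR-151-5p was at 5708, 4426 and 4131 RPM in chromatin and 9989, 10520 and 9410 RPM in cytoplasm, and miR-151-3p at 10043, 9510.1 and 7200.2 RPM and 6183, 7589 and 9513 RPM. The 5p arm was lower in mNPC chromatin without overlap and the 3p arm overlapped. The mNPC nucleoplasm had the highest miR-151-3p of all groups, at 12822, 15052 and 16306 RPM, beside 8462, 8045 and 7751 RPM of 5p. In mCtx cytoplasm, miR-151-5p was at 1218, 5183 and 3651 RPM, and it was replicate 1 again that departed, while miR-151-3p was at 2038, 1619 and 1566 RPM. The log2 differences between chromatin and cytoplasm in mESC, mNPC and mCtx were -2.52, -1.08 and -1.19 for miR-151-5p and -1.06, 0.21 and -0.15 for miR-151-3p. The mCtx values were -1.80 and -0.035 without mCtx cytoplasm replicate 1. As a percentage of all miRNA RPM the arms again parted by group mean. miR-151-5p was at 0.218% in chromatin against 0.373% in cytoplasm of mESC, 0.870% against 1.10% in mNPC and 0.213% against 0.391% in mCtx. miR-151-3p was at 0.467% against 0.297%, 1.63% against 0.856% and 0.253% against 0.202%. In mCtx both arms overlapped between these fractions. There, cytoplasm replicate 1 was at 0.140% of 5p, beside 0.607% and 0.425% in the other cytoplasm libraries. Its 3p value was 0.235%, beside 0.190% and 0.182%. Between nucleoplasm and cytoplasm of mESC and mNPC, 3p had the larger log2 difference in RPM, except for miR-423 in mESC. miR-151-3p differed by 0.34 in mESC and 0.94 in mNPC, and miR-151-5p by -0.10 and -0.30. miR-423-3p differed by 0.23 and 0.92, and miR-423-5p by -0.36 and -0.09.

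**Figure D3:**
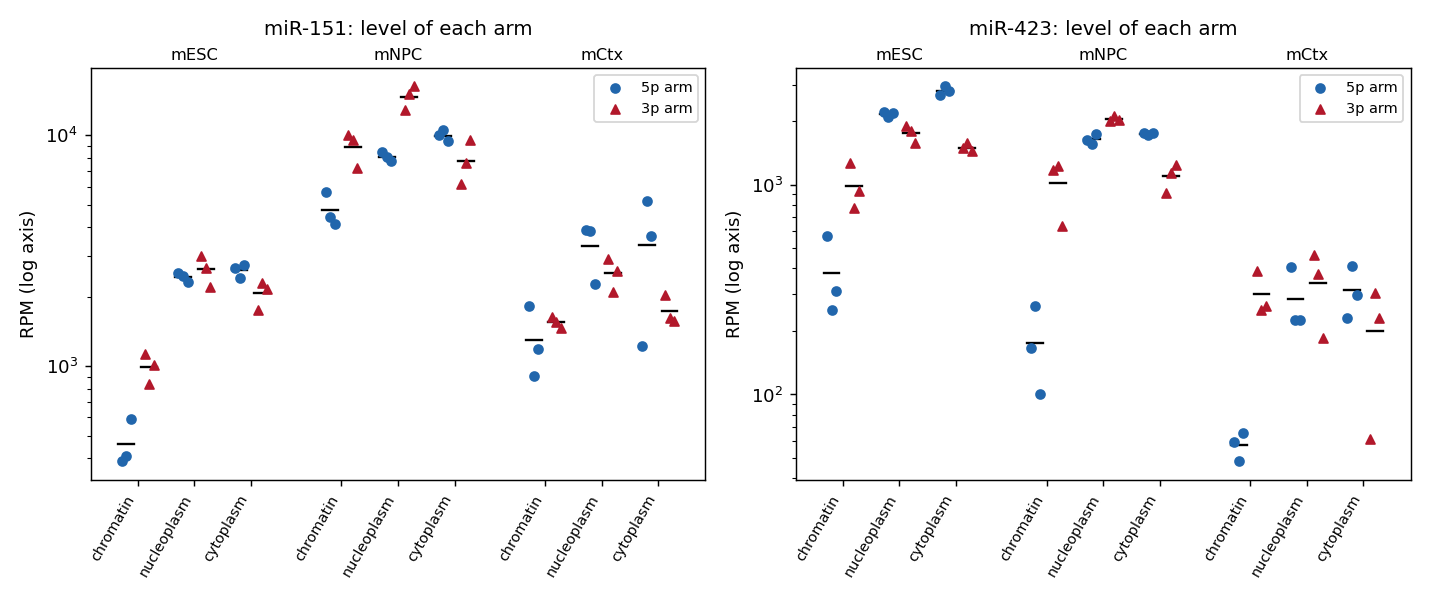
Level of the 5p arm (blue circles) and the 3p arm (red triangles) of miR-151 and miR-423 in each library, in RPM on a log axis, with black bars for group means. In chromatin the 5p points of miR-423 lie well under the 3p points in every cell type, at 48.1 to 65.3 RPM in mCtx; in cytoplasm the order is turned.

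Between cell types the ratio of miR-423 was lowest in mESC wherever groups separated. In chromatin it was 1.13 (SE 0.23) higher in mNPC and 0.93 (SE 0.25) higher in mCtx than in mESC, and in nucleoplasm 0.63 (SE 0.11) higher in mNPC, each without overlap. mNPC and mCtx overlapped in chromatin and nucleoplasm, with differences of -0.20 (SE 0.27) and -0.11 (SE 0.30), and mCtx overlapped mESC in nucleoplasm, with 0.52 (SE 0.30). In cytoplasm all 3 cell types overlapped, with -0.21 (SE 0.52) for mCtx minus mNPC and -0.0007 (SE 0.51) for mCtx minus mESC. For miR-151 the ratio was lower in mCtx than in mNPC, without overlap, by -0.59 (SE 0.29) in chromatin and -1.22 (SE 0.34) in nucleoplasm, and higher in mNPC than in mESC by 0.76 (SE 0.17) in nucleoplasm. The other comparisons of miR-151 between cell types overlapped, including cytoplasm, with -0.34 (SE 0.77) for mCtx minus mNPC and -0.38 (SE 0.76) for mCtx minus mESC.

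mCtx cytoplasm replicate 1 had the highest miR-151 ratio and the lowest miR-423 ratio of its group, at 0.74 and -1.91. Leaving it out therefore moves the means of the pair in opposite directions, and 2 mCtx cytoplasm libraries remain. Without it, miR-151 was lower in mCtx than in mNPC and mESC, by -1.07 and -1.11, and miR-423 was higher, by 0.29 and 0.51. None of these overlapped, which 2 libraries reach more easily than 3. The sign of the miR-423 differences turned with that library. Among all miRNAs with both arms listed in those libraries, 13 of 16 did not overlap for mCtx against mNPC and 12 of 17 for mCtx against mESC. These counts also use 2 mCtx libraries and are not comparable with shares from 3. With all libraries, the share of miRNAs without overlap in either direction was 66.7% (2 of 3) in chromatin for mNPC against mESC. It was 60% (3 of 5) for mCtx against mNPC and 50% (2 of 4) for mCtx against mESC. In the same order it was 80% (8 of 10), 56.2% (9 of 16) and 63.2% (12 of 19) in nucleoplasm. In cytoplasm it was 37.5% (3 of 8), 60% (9 of 15) and 53.8% (7 of 13). miR-151 and miR-423, chosen by this ratio, are in each of these small sets, so nothing is read from the shares.

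Ordered by mean, the miR-423 ratio ran from mNPC chromatin (2.57 ± 0.32) and mCtx chromatin (2.38 ± 0.35), which overlapped, to mESC chromatin (1.45 ± 0.25), which stood apart from its neighbours on both sides. mNPC, mCtx and mESC nucleoplasm followed at 0.32 ± 0.11, 0.21 ± 0.50 and -0.31 ± 0.15, each overlapping the next. The cytoplasm groups came last, at -0.69 ± 0.23, -0.90 ± 0.05 and -0.90 ± 0.88 for mNPC, mESC and mCtx. Without mCtx cytoplasm replicate 1 the mCtx mean was -0.39 and came before the other cytoplasm groups. Among the miR-151 groups every neighbour in the order overlapped, from mESC chromatin at 1.12 ± 0.39 to mCtx cytoplasm at -0.72 ± 1.29 (-1.45 without that library). Over the 27 libraries the log2 ratios of miR-151 and miR-423 had a Pearson correlation of 0.48 and a Spearman correlation of 0.57. The libraries of a fraction share their position in both, so this describes the fractions and not 27 independent points. miR-181c, the only other miRNA for which this likeness could be computed in all libraries, had r = -0.10 with miR-151 and -0.23 with miR-423.

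The ratio of miR-151 also moved with the lowest value listed in a library, a value that would be higher in a shallower library if a fixed minimum of reads was required. The Pearson correlation of the log2 ratio with the log2 of that lowest value was 0.62 over the 27 libraries and 0.60, 0.70 and 0.65 within the 9 chromatin, 9 nucleoplasm and 9 cytoplasm libraries. For miR-423 it was 0.32 over all libraries and -0.41, 0.04 and -0.21 within fractions. The lowest listed value also differs between cell types and fractions, and its part in the miR-151 differences was not tested.

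The summed level of the arms of a miRNA does not enter the ratio and was tested. The test was limma on log2(RPM + 1) over 713 small RNAs, with Benjamini-Hochberg adjusted p-values and a threshold of 0.05. The libraries tested are those on which the pair was chosen. miR-151 was most abundant in mNPC in every fraction: its summed level was 13673 ± 2222 RPM (SD, n = 3) in chromatin, 22813 ± 1409 in nucleoplasm and 17735 ± 1413 in cytoplasm. In mESC it was 1455 ± 189, 5064 ± 498 and 4688 ± 242 RPM, and in mCtx 2858 ± 522, 5858 ± 984 and 5091 ± 1777 RPM, in the same order. No mNPC library overlapped a library of either other cell type in the same fraction. As a share of all miRNA RPM, miR-151 was at 2.50%, 2.53% and 1.95% in the mNPC fractions, 0.69%, 0.73% and 0.67% in mESC and 0.47%, 0.65% and 0.59% in mCtx.

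miR-151 was higher in mNPC than in mESC by 3.23 on the log2 scale in chromatin (SE 0.20, limma adjusted p = 1.58e-11), 2.17 in nucleoplasm (adjusted p = 9.98e-09) and 1.92 in cytoplasm (adjusted p = 7.29e-08). It was lower in mCtx than in mNPC by -2.26 in chromatin (limma adjusted p = 9.73e-09), -1.97 in nucleoplasm (adjusted p = 8.54e-08) and -1.86 in cytoplasm (adjusted p = 2.23e-07). These calls passed under every alternative scaling and filter tried. Between mCtx and mESC, miR-151 differed in chromatin, by 0.97 (limma adjusted p = 0.000333), but scaling to miRNA reads turned this to -0.58 (adjusted p = 0.0130), so its direction depends on what the reads are counted against. In nucleoplasm and cytoplasm the difference between mCtx and mESC was 0.20 and 0.06 (limma adjusted p = 0.432 and 1) and became negative with miRNA reads only. The share of the 713 small RNAs called in these comparisons was 48.5%, 48.7% and 39.4% for mNPC against mESC in chromatin, nucleoplasm and cytoplasm, 29.2%, 32.7% and 30.6% for mCtx against mNPC and 54.7%, 50.9% and 42.5% for mCtx against mESC.

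miR-423 was least abundant in mCtx. Its summed level there was 359 ± 78.8 RPM in chromatin, 627 ± 229 in nucleoplasm and 513 ± 212 in cytoplasm, against 1367 ± 420, 3937 ± 167 and 4301 ± 187 RPM in mESC and 1192 ± 399, 3703 ± 58.2 and 2848 ± 160 RPM in mNPC. All mCtx libraries lay under all mESC and mNPC libraries of the same fraction. The level in mCtx was lower than in mESC by -1.90, -2.71 and -3.16 on the log2 scale in chromatin, nucleoplasm and cytoplasm (limma adjusted p = 1.97e-05, 2.34e-07 and 2.48e-08). It was lower than in mNPC by -1.68, -2.63 and -2.56 (limma adjusted p = 0.000185, 6.60e-07 and 8.73e-07). Without mCtx cytoplasm replicate 1 the cytoplasm differences were -2.80 and -2.20, and that between mCtx and mNPC for miR-151 was -1.57 (limma adjusted p = 1.58e-07, 5.04e-06 and 3.42e-07). Centring every library on its median ended the 3 calls against mESC (adjusted p = 0.794, 0.617 and 0.393) and left the direction as it was.

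Between mNPC and mESC the summed level of miR-423 differed by -0.22, -0.09 and -0.60 in chromatin, nucleoplasm and cytoplasm, and none passed (limma adjusted p = 0.686, 0.977 and 0.144). This outcome rests on the scaling. Against miRNA reads only, miR-423 was lower in mNPC by -1.58 in chromatin (limma adjusted p = 7.44e-05) and by -0.97 in cytoplasm (adjusted p = 0.00579). With libraries centred on their median it was higher by 4.81 in chromatin (limma adjusted p = 0.00476) and 6.03 in nucleoplasm (adjusted p = 0.000420). The median of a library depends on how many of its rows are at 0. In nucleoplasm, 336 to 340 entries were above 0 in the mNPC libraries and 493 to 615 in the mESC libraries. The centred values carry that difference and cannot be read as a higher level of miR-423. As a share of miRNA RPM, miR-423 was at 0.64%, 0.57% and 0.62% in the mESC fractions, 0.22%, 0.41% and 0.31% in mNPC and 0.059%, 0.069% and 0.060% in mCtx.

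**Figure D4:**
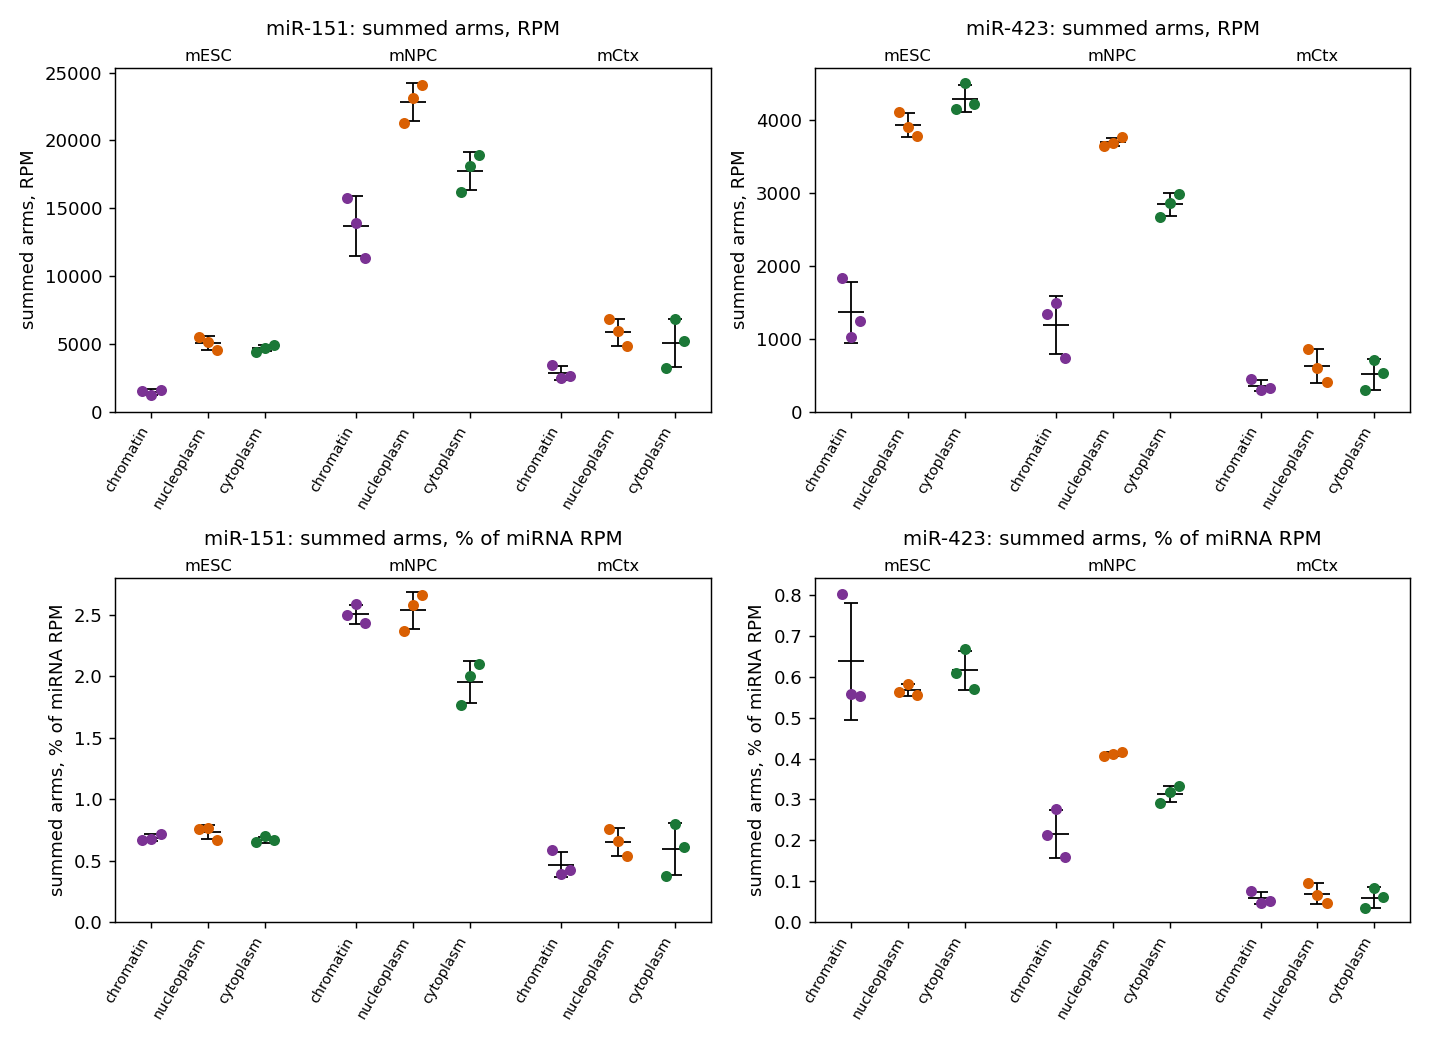
Summed level of both arms of miR-151 (left) and miR-423 (right) in each library, in RPM (top) and as a percentage of all miRNA RPM of the library (bottom); points are libraries, bars the group mean with its SD (n = 3). miR-151 is highest in mNPC and miR-423 lowest in mCtx on both scales, while the low chromatin values in mESC RPM are level with the other fractions in the percentage.

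Between fractions, 4 of the 6 summed levels in RPM were lower in chromatin than in cytoplasm by the test, a difference that was not called on the scale of miRNA reads. In mESC, miR-151 and miR-423 were both lower in chromatin than in cytoplasm, by -1.69 and -1.70 (SE 0.20 and 0.31, limma adjusted p = 3.34e-07 and 6.90e-05), miR-423 was lower in mNPC by -1.32 (SE 0.31, adjusted p = 0.00161) and miR-151 in mCtx by -0.78 (SE 0.20, adjusted p = 0.00268). miR-151 in mNPC (-0.39, limma adjusted p = 0.147) and miR-423 in mCtx (-0.44, adjusted p = 0.280) did not pass, but without mCtx cytoplasm replicate 1 the latter was -0.80 (limma adjusted p = 0.0322) and the miR-151 difference in mCtx -1.07 (adjusted p = 2.88e-05). Of the 713 small RNAs, 57.6%, 41.5% and 45.7% were called between chromatin and cytoplasm in mESC, mNPC and mCtx. miRNAs held a smaller share of the chromatin libraries, and when levels were scaled to miRNA reads only, none of the 4 calls passed: the differences were 0.03 and 0.03 in mESC, -0.57 for miR-423 in mNPC and -0.30 for miR-151 in mCtx (limma adjusted p = 1, 1, 0.343 and 0.337). The difference between chromatin and cytoplasm was itself compared between cell types: 1 of the members passed for mNPC against mESC, where 29.9% of the 713 small RNAs were called, and 2 for mCtx against mESC, where 43.5% were called.

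No difference in summed level between nucleoplasm and cytoplasm passed for either miRNA. The differences were 0.11, 0.36 and 0.25 for miR-151 and -0.13, 0.38 and 0.32 for miR-423 in mESC, mNPC and mCtx (limma adjusted p = 1, 0.369 and 0.435, and 1, 0.802 and 0.552), while 20.2%, 16% and 28.8% of the small RNAs were called. Unadjusted, 0 of these 6 p-values was under 0.05, the lowest being 0.0843. Without mCtx cytoplasm replicate 1 the mCtx differences were -0.038 for miR-151 and -0.042 for miR-423. The arm ratios of the same libraries, given above, were higher in nucleoplasm than in cytoplasm without overlap for miR-423 in all 3 cell types.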

How the data were processed

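Per the labels' protocols, RNA below 200 nt was freed of rRNA, and libraries sized 120-160 bp were sequenced from one end for 100 bp. The authors deposited 1 table of RPM values with 27 library columns; for the aligner, counting rule, scaling total and use of strand, the status is: not given in the sources used here. Entry starts counted from 0 were converted. Log2 ratios of 3p to 5p were taken per library. Arms and hairpins of a miRNA were summed, and the 713 rows that reached 1 RPM in 3 or more libraries entered a test on log2(RPM + 1) with limma 3.58.1 in R 4.3.3 (trend, robust; 9 group means, 18 residual degrees of freedom; 15 contrasts, Benjamini-Hochberg within each). The fit was tested on simulated data. Libraries were grouped by their titles; the labels call them biological replicates but name no separate cultures, so p-values measure the spread between libraries, which may be technical. The members and all lists were chosen with earlier results of these data known. Named were all miR-151 and miR-423 entries, their relatives miR-28a, miR-28c and miR-708, and the miRNAs most alike by correlation of the ratio; others were named after their values were seen. Alternatives covered pseudocounts, filters, scalings, a replicate block and each library left out. Python 3.11.15 was used for the ratios.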

Additional observations from a re-analysis of the deposited data

Results flagged for a closer look

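In 3 of 12 terms tested for the summed levels of miR-151 and miR-423, the difference between a nuclear fraction and cytoplasm was not the same in 2 cell types by a test of the difference itself (an interaction term in the same limma fit, added after the differences within cell types had been seen). For miR-151 the difference was 1.31 higher in mNPC than in mESC on the log2 scale (SE 0.28, limma adjusted p = 0.00126), since miR-151 was lower in chromatin by -1.69 in mESC and by -0.39 in mNPC. For miR-151 it was 0.91 higher in mCtx than in mESC (SE 0.28, limma adjusted p = 0.0143), and for miR-423 it was 1.25 higher in mCtx than in mESC (SE 0.43, limma adjusted p = 0.0248). Over all 713 rows, 29.9% were called for mNPC against mESC and 43.5% for mCtx against mESC. Scaled to miRNA reads only, the same terms were 0.33, -0.34 and 0.01 (limma adjusted p = 0.521, 0.407 and 1). The miR-423 term did not pass without mESC chromatin replicate 2 (1.07, limma adjusted p = 0.0675), mCtx chromatin replicate 1 (1.08, adjusted p = 0.0670) or mCtx cytoplasm replicate 1 (0.90, adjusted p = 0.0754). Without mCtx cytoplasm replicate 1 the miR-151 term for mCtx against mESC was 0.62 (limma adjusted p = 0.0361). The miR-151 chromatin term for mCtx against mNPC was -0.40 with all libraries (limma adjusted p = 0.394), where 110 of 713 rows were called. Without that library it was -0.69 and passed (adjusted p = 0.0378).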

How the results depend on the processing

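Counting error could not be bounded, because no read counts or depths are given. If the lowest value of a library stood for 10 reads, miR-423-5p in mCtx chromatin would rest on 24.8 to 26 reads and all 108 values of the members would lie between 17 and 5567 reads; 103 of them came within 0.02 reads of a multiple of 1/6 of a read. The lowest member value was 1.7 times the lowest value of its library. A pseudocount of 10 RPM moved the arm ratio means and differences by at most 0.25, the largest move being that of miR-423 chromatin minus cytoplasm in mCtx from 3.27 to 3.03. Medians in place of means moved the miR-151 ratio of mCtx cytoplasm from -0.72 to -1.22. Of the libraries left out in turn, mCtx cytoplasm replicate 1 moved a ratio most, by 0.73. Joining hairpin reads to an arm was not run, since neither miRNA had a hairpin entry.

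Scaling moved the summed levels most. The median over all rows shifted by -4.55 to 6.11 on the log2 scale between groups when libraries were centred on one median, and by -0.22 to 0.75 with miRNA reads only. With miRNA reads only, chromatin minus cytoplasm in mESC was 0.033 for miR-151 and 0.032 for miR-423. The mNPC values were 0.36 and -0.57, the mCtx values -0.30 and 0.039. The difference between mNPC and mESC for miR-423 was -1.58 in chromatin and -0.97 in cytoplasm, and that between mCtx and mESC for miR-151 was -0.58, -0.18 and -0.24 in chromatin, nucleoplasm and cytoplasm. With libraries centred on one median, chromatin minus cytoplasm of miR-423 was -3.23 in mNPC (adjusted p = 0.0728) and -3.47 in mCtx (limma adjusted p = 0.0369). Nucleoplasm minus cytoplasm was -2.43 for miR-151 in mESC, and -1.77 for miR-151 and -1.71 for miR-423 in mCtx. miR-423 in mNPC minus mESC was 4.81, 6.03 and 2.98 in chromatin, nucleoplasm and cytoplasm, and in mCtx minus mESC -0.52, -1.15 and -2.11, while miR-151 in mCtx minus mESC chromatin was 2.35. The interaction terms were 2.77 and 1.25 for miR-151 (mNPC and mCtx against mESC) and 1.59 for miR-423 when centred, none past the threshold, and 0.33, -0.34 and 0.0069 with miRNA reads only. The median of a library depends on how many of its rows are at 0, so the centred values also carry that difference between libraries. Other causes of these changes were not tested.

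With single libraries left out, the miR-151 difference between chromatin and cytoplasm in mNPC ran from -0.49 to -0.26 and that of miR-423 in mCtx from -0.80 to -0.15, each passing in at least 1 such fit. Nucleoplasm minus cytoplasm in mCtx ran from -0.038 to 0.49 for miR-151 and from -0.042 to 0.60 for miR-423. miR-423 in mNPC minus mESC chromatin ran from -0.41 to 0.094, miR-151 in mCtx minus mESC cytoplasm from -0.18 to 0.35, and the miR-423 interaction from 0.90 to 1.54. The replicate numbers were not taken to pair the samples, since no label says that they pair cultures. For same-numbered fractions of one cell type, deviations from group means had r from -0.10 to 0.21 (median 0.045, 8 of 27 over 0.1). For different numbers r ran from -0.26 to 0.12 (median -0.032, 4 of 54 over 0.1). The same-numbered values were the higher by median, and they do not decide whether the numbers pair samples. With the replicate block, miR-423 in chromatin minus cytoplasm of mESC was -1.70 with limma adjusted p = 0.000614, and no call of miR-151 or miR-423 changed, with the 3 interaction terms at adjusted p = 0.00710, 0.0378 and 0.0488; the number of rows called in mNPC chromatin minus cytoplasm went from 296 to 309.

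With miRNA reads only, 280 rows were tested, against 713, and fewer were called. Chromatin minus cytoplasm had 70, 27 and 66 in mESC, mNPC and mCtx (411, 296 and 326 in RPM), and nucleoplasm minus cytoplasm 17, 7 and 29 (144, 114 and 205). mNPC minus mESC had 148, 182 and 169 in chromatin, nucleoplasm and cytoplasm (346, 347 and 281), mCtx minus mNPC 117, 144 and 144 (208, 233 and 218), and mCtx minus mESC 164, 189 and 177 (390, 363 and 303). Centred on one median, nucleoplasm minus cytoplasm had 44, 68 and 73, mCtx minus mESC 222, 171 and 160, mCtx minus mNPC 442 in nucleoplasm and 108 in cytoplasm, and mNPC minus mESC 177 in cytoplasm. The share of called rows that were higher moved by over 10 percentage points in 8 of 15 comparisons with miRNA reads only and 13 of 15 when centred; for chromatin minus cytoplasm it was 51.1%, 53.7% and 50.3% in RPM, 25.7%, 33.3% and 45.5% with miRNA reads only, and 28.7%, 54.8% and 25.7% when centred. With one listing floor of 59.07 RPM for all libraries, nucleoplasm minus cytoplasm had 81 in mESC and 130 in mCtx. Of the miRNAs with both arms listed, requiring both arms at or above that floor left fewer miRNAs in all. Without overlap were then 5 of 19 for nucleoplasm minus cytoplasm in mESC (8 of 23 before), 3 of 7 for chromatin minus cytoplasm in mCtx (6 of 13), 5 of 9 for nucleoplasm minus cytoplasm in mCtx (13 of 30) and 2 of 8 for chromatin minus nucleoplasm in mCtx (6 of 15). They were 1 of 3 for mCtx minus mESC in chromatin (2 of 4), and in nucleoplasm 5 of 7 for mNPC minus mESC (8 of 10), 4 of 7 for mCtx minus mNPC (9 of 16) and 5 of 9 for mCtx minus mESC (12 of 19). In cytoplasm they were 4 of 8 for mCtx minus mNPC (9 of 15). miR-423 was no longer in the sets that include mCtx chromatin. Without mCtx cytoplasm replicate 1, an alternative chosen after seeing the data, 27 of 40 miRNAs did not overlap for nucleoplasm minus cytoplasm in mCtx and 12 of 17 for mCtx minus mESC in cytoplasm.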

Other observations

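The relatives of miR-151 in the miR-28 family showed other arm preferences. Their 5p arms are given because they share the seed AGGAGCU (capitals, RefSeq for GRCm38.p6).
mmu-miR-28a-5p: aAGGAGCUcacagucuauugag
mmu-miR-708-5p: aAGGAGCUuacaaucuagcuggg
miR-28a was mostly 5p: its mean log2 ratio of 3p to 5p lay between -4.00 and -2.03 in the 8 groups with a ratio, 3 of which had it in 1 library only. The highest mean, in mCtx cytoplasm, came from -0.31 in replicate 1 beside -3.03 and -2.75. In mESC chromatin the 3p arm was listed at 0 in all 3 libraries. miR-708 was mostly 3p in mCtx, with mean log2 ratios of 1.61 in chromatin, 1.49 in nucleoplasm and 2.16 in the 2 cytoplasm libraries that listed both arms. Both arms of miR-708 were listed at 0 in mCtx cytoplasm replicate 1, against summed levels of 1647 and 1739 RPM in the other libraries of the group. In mESC the miR-708 ratio was 1.09 in cytoplasm and 0.56 in nucleoplasm, and in mNPC all its values were listed at 0. miR-28c is not analysed here.

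Within groups the arm ratios of miR-151 and miR-423 deviated in opposite directions. The correlation of their deviations from the group means was r = -0.79 over 27 libraries, and -0.49 without mCtx cytoplasm replicate 1, in which the miR-151 ratio was the highest and the miR-423 ratio the lowest of the group. With all 27 libraries, the deviations of miR-181c went with those of miR-151 (r = 0.54) and against those of miR-423 (r = -0.56). In mCtx cytoplasm replicate 1 the miR-181c ratio was -0.76, beside -1.75 and -1.82 in the other libraries of the group. The miR-181c correlations were not computed without that library, so how far they rest on it was not tested. These values share their libraries and carry no test.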
